A study of Mus musculus with 12 samples.

Results

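Glycolysis and the pentose phosphate pathway were followed through 34 genes in mouse spleen, from the transporters that let glucose in and lactate out to the last enzymes of the pentose phosphate branch. The 34 genes were chosen by symbol, and all 34 had a row among the 32121 genes of the count table. Messenger RNA was counted in spleens of 3 SB animals, genotype VEC-Cre, SB Transposase and onc2, and of 3 WT animals. Every animal is labelled C57BL/6, and 2 pieces of each spleen were sequenced separately to ask how alike the pieces of a spleen are. VEC-Cre is Cre recombinase under the vascular endothelial cadherin promoter, which switches on the Sleeping Beauty transposase. The transposase then moves the mutagenic onc2 transposon, so that each SB spleen can carry insertions of its own. That promoter is known to be active in the embryonic endothelium that gives rise to blood cells, so blood cells can carry insertions as well. The labels give no age, and they do not say which of these alleles, if any, the WT animals carried.

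Glycolysis splits glucose into pyruvate, with a small gain of ATP, and lactate dehydrogenase can turn pyruvate into lactate. The pentose phosphate pathway leaves glycolysis after the hexokinase step; its oxidative arm makes NADPH and its nonoxidative arm makes and recycles ribose phosphate for nucleotides. Most steps have several isozymes from separate genes, and mature red cells, which lack mitochondria, depend on glycolysis and use a pyruvate kinase and a bisphosphoglycerate mutase of their own. The spleen of the mouse holds lymphocytes, macrophages that clear old red cells, and, in the red pulp, blood-forming cells.

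The 12 libraries held 14320833 to 22031026 counts. The 34 genes together took 0.508% to 0.726% of the counts in the 6 SB libraries and 0.354% to 0.445% in the 6 WT libraries. Markers that define the lymphoid spleen were high in WT spleens and low in SB spleens. The 10 B cell markers summed to 70.4 to 161 CPM (counts scaled to library size) in SB animals and 8911 to 9960 CPM in WT animals, and the 10 T cell markers summed to 28.0 to 135 CPM in SB animals and 1110 to 1224 CPM in WT animals. Blood-forming markers differed among SB animals: for the 11 erythroid markers the sum was 1733, 12279 and 4832 CPM in SB animals 1, 2 and 3, against 3675, 2585 and 1383 CPM in WT animals 1, 2 and 3. The 10 red pulp macrophage markers summed to 1174, 15240 and 1410 CPM in SB animals, against 1521 to 1649 CPM in WT animals. No marker with a row among these 4 lists was at 0 in either group. All values below are from whole pieces of tissue, in which fewer cells of a type and less RNA per cell cannot be told apart.

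In SB spleens 10 of the 34 genes rose and 2 fell relative to WT spleens. Those that rose span the pathway from the first phosphorylation of glucose (Hk1) through Pfkm, Tpi1, Gapdh and the pyruvate kinase Pklr to lactate dehydrogenase (Ldha) and the lactate exporter Slc16a3, and include G6pdx, Pgd and Tkt of the pentose phosphate pathway. The 2 that fell, Eno2 and Eno3, are both enolases; with piece 2 of each spleen alone, 9 genes were called higher and the calls of Eno2, Eno3 and Pklr were lost (adjusted p = 0.0503, 0.0894 and 0.0507 by edgeR). Counts of the 2 pieces were summed per animal and tested with edgeR's quasi-likelihood test, with p-values adjusted by Benjamini-Hochberg over all 17328 genes tested, and a gene is called below where its adjusted p is under 0.05. By that rule 17.1% of all genes were called, 7.99% higher and 9.1% lower in SB spleens, while 35.3% of the 34 genes were called, 29.4% higher and 5.88% lower. The median log2 change of the 34 genes was 0.77, against 0.11 over all genes tested, and 26 of the 34 changes were above 0, against 55.3% of all genes. The 6 SB libraries were all above the 6 WT libraries for 13 of the 34 genes and all below for 3, against 12.9% and 16.7% of all genes tested. With 1 WT animal left out the call remained for Slc16a3 alone, whichever WT animal it was, and with 1 SB animal left out between 13 and 17 of the genes were called. Without SB animal 3 the calls of Pfkm, Ldha and Tkt were lost (adjusted p = 0.0543, 0.0593 and 0.0534 by edgeR). Some marker lists differed between the groups as well: 10 of 10 B cell and 8 of 10 T cell markers fell, and 8 of 10 proliferation markers rose. In others few or no markers were called, with 1 of 10 neutrophil and 0 of 10 red pulp macrophage markers. Their median log2 changes were still 2.36 and 1.92, so the lack of calls does not show equal levels. Whether cell makeup has a part in the differences of the 34 genes was not tested.

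**Figure D1:**
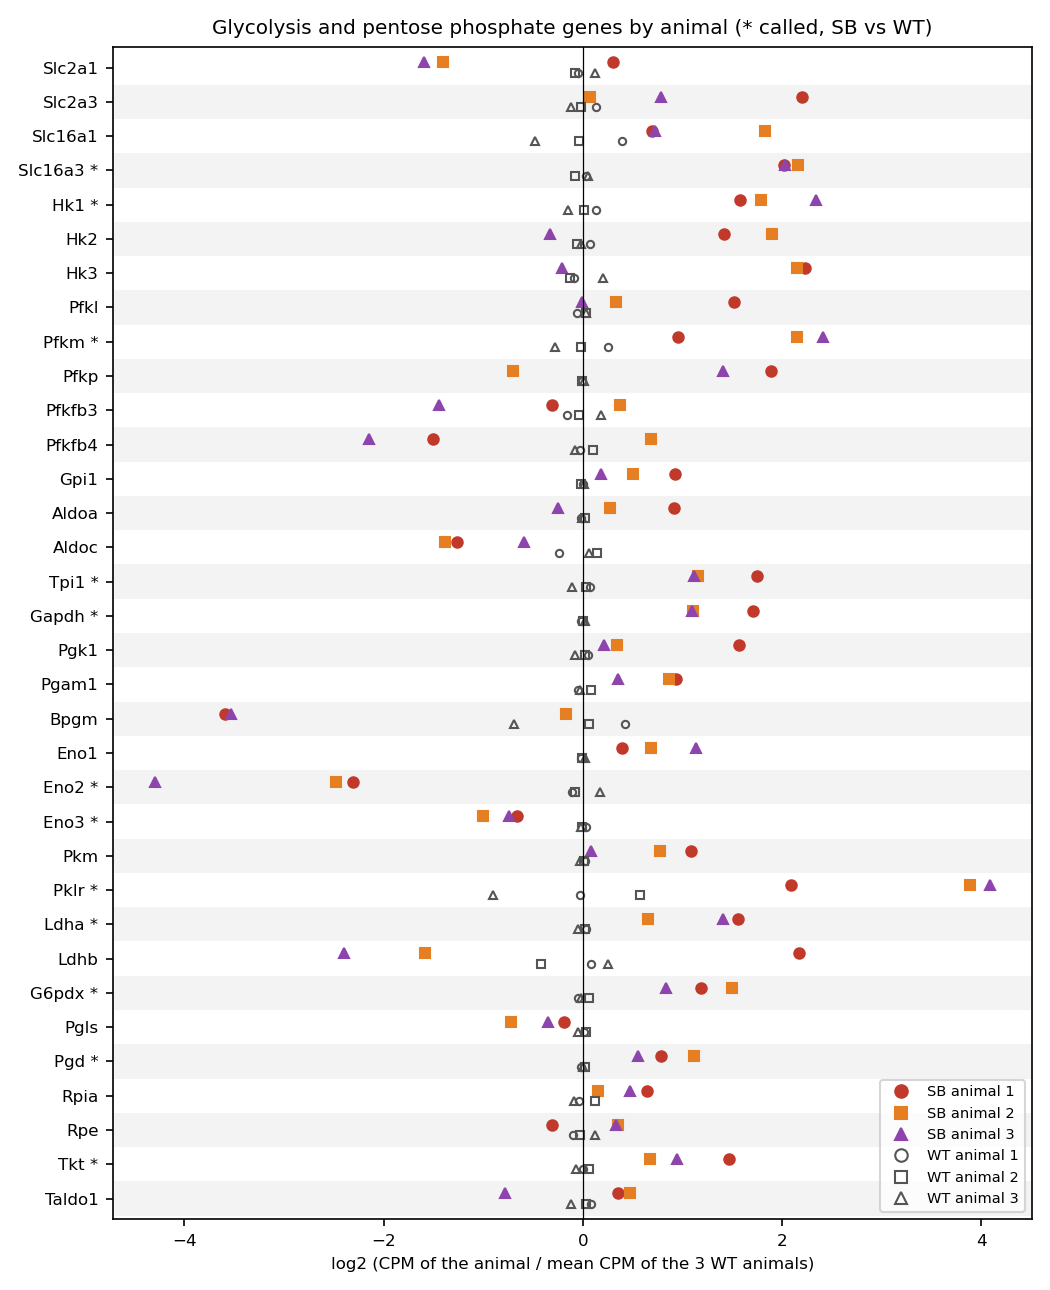
Level of each of the 34 genes in each animal, as log2 of its CPM over the mean CPM of the 3 WT animals, with SB animals filled and drawn above WT animals (open) in each row. Stars mark the 12 called genes; the SB symbols spread far more widely than the WT symbols, with a median range of 1.07 log2 units among SB animals against 0.16 among WT animals.

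Of the 4 transporters, Slc16a3 rose. Slc16a3 (ENSMUSG00000025161), the proton-coupled monocarboxylate carrier known for exporting lactate from glycolytic cells, had 39.2, 43.3 and 39.4 CPM in SB animals 1, 2 and 3, against 9.87, 9.16 and 9.99 CPM in WT animals. The 3 SB animals lay close together and far above the WT animals. The log2 change was 2.07 (SE 0.17, adjusted p = 0.00348 by edgeR). Its promoter in the RefSeq annotation, printed here because this was the smallest adjusted p among the 34 genes, lies at chr11:120948817-120949116 on the plus strand of GRCm38.p6. Capitals mark the core word of the hypoxia response element, searched on both strands as ACGTG or GCGTG, which starts at -27 and -14 from the transcription start.
Slc16a3: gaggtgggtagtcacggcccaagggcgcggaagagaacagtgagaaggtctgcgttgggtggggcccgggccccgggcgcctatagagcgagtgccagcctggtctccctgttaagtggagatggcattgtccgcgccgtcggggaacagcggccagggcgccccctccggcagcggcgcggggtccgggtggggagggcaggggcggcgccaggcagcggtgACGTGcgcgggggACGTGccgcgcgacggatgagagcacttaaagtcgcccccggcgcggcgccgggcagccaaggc
The same word is in 35 of the 47 promoter windows of 300 bases that RefSeq gives for 33 of the 34 genes, and in 43.8% of all 32851 such windows. A match of letters is a description of the sequence and was not tied to any binding data.

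Slc16a1, the carrier that moves lactate and pyruvate in or out along their gradients, had 177, 391 and 181 CPM in SB animals, against 144, 107 and 78.7 CPM in WT animals. No SB library overlapped a WT library, but the gene was not called (log2 1.19, SE 0.40, adjusted p = 0.0973 by edgeR). Slc2a3, the high-affinity glucose transporter of neurons and many blood cells, had 404, 92.7 and 152 CPM in SB animals and 96.4, 86.9 and 81.4 CPM in WT animals. SB animal 1 was far above the rest and SB animal 2 overlapped the WT libraries, and the gene was not called (adjusted p = 0.153 by edgeR). Slc2a1, the glucose transporter of most tissues, had 89.0, 27.3 and 23.9 CPM in SB animals and 69.8, 68.5 and 78.6 CPM in WT animals, so that SB animal 1 stood above and SB animals 2 and 3 below the WT range (adjusted p = 0.443 by edgeR).

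Among the hexokinases, which trap glucose in the cell, Hk1 rose. Hk1, the widely expressed form bound to mitochondria, had 335, 388 and 568 CPM in SB animals, against 123, 113 and 101 CPM in WT animals. The groups did not overlap, and SB animal 3 was the highest (log2 1.94, SE 0.25, adjusted p = 0.00914 by edgeR). Hk2, the inducible form, had 41.5, 57.8 and 12.4 CPM in SB animals and 16.3, 14.9 and 15.3 CPM in WT animals. Hk3, known from myeloid cells, had 119, 112 and 21.9 CPM in SB animals and 23.8, 23.1 and 29.1 CPM in WT animals. For both genes SB animals 1 and 2 were above every WT animal and SB animal 3 was below, and neither was called (adjusted p = 0.158 for Hk2 and 0.106 for Hk3 by edgeR).

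Phosphofructokinase, the committing step of glycolysis, is built from liver (Pfkl), muscle (Pfkm) and platelet (Pfkp) subunits. Pfkm rose, with 35.4, 80.9 and 97.2 CPM in SB animals, against 21.7, 18 and 15 CPM in WT animals. SB animal 1 was the nearest to the WT animals, yet no library overlapped (log2 1.96, SE 0.41, adjusted p = 0.0280 by edgeR). Pfkp had 336, 56.0 and 242 CPM in SB animals and 90.3, 90.6 and 91.8 CPM in WT animals, with SB animals 1 and 3 above and SB animal 2 below the narrow WT range. The mRNA of Pfkp shares 15.4% of its 50-base words with the overlapping gene Pitrm1, which was itself called higher (log2 1.24). Pfkl had 257, 113 and 89.3 CPM in SB animals and 86.2 to 91.6 CPM in WT animals. Neither Pfkp nor Pfkl was called (adjusted p = 0.208 and 0.237 by edgeR).

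Pfkfb3 and Pfkfb4 make and break the fructose bisphosphate that switches phosphofructokinase on, and neither was called. Pfkfb3 had 81.7, 131 and 37.2 CPM in SB animals and 90.7, 98.3 and 114 CPM in WT animals (adjusted p = 0.685 by edgeR). Pfkfb4 had 13.1, 59.9 and 8.42 CPM in SB animals and 36.4, 39.9 and 35.3 CPM in WT animals (adjusted p = 0.694 by edgeR). In both genes SB animal 2 was above the WT animals and SB animals 1 and 3 below. Gpi1, the isomerase between the hexokinase and phosphofructokinase steps, had 490, 366 and 293 CPM in SB animals and 259, 255 and 261 CPM in WT animals, with no overlap and no call (log2 0.57, SE 0.22, adjusted p = 0.135 by edgeR).

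The aldolases, which cut the sugar into triose phosphates, were not called. Aldoa, the main form in muscle and red cells, had 671, 430 and 299 CPM in SB animals and 352, 361 and 352 CPM in WT animals, so that the WT values lay within the SB range. Aldoc, the brain form, had 3.78, 3.48 and 6.02 CPM in SB animals and 7.70, 10.04 and 9.49 CPM in WT animals. Every SB library of Aldoc was below every WT library (log2 -1.03, SE 0.34, adjusted p = 0.0888 by edgeR).

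At the triose steps Tpi1 and Gapdh rose. Tpi1, which interconverts the triose phosphates, had 281, 187 and 182 CPM in SB animals, against 88.4, 85.5 and 77.7 CPM in WT animals (log2 1.37, SE 0.22, adjusted p = 0.0138 by edgeR). Gapdh, which makes NADH at the next step, had 112, 74.1 and 73.5 CPM in SB animals, against 33.8, 34.4 and 34.8 CPM in WT animals (log2 1.33, SE 0.21, adjusted p = 0.0138 by edgeR). For both, SB animal 1 was the highest and all SB libraries were above all WT libraries. Pgk1, the first step that yields ATP, had 30.2, 12.9 and 11.8 CPM in SB animals and 10.5, 10.3 and 9.66 CPM in WT animals and was not called (adjusted p = 0.207 by edgeR). Gapdh, Pgk1 and Pgam1 have processed pseudogenes, with which they share 58.4%, 68.0% and 41.5% of the 50-base words of their mRNA. Reads from such stretches can be left out or split by a counter, so the low counts of these genes are uncertain as levels.

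Of the 3 enolases, which make phosphoenolpyruvate, 2 fell. Eno2 (ENSMUSG00000004267), the form known from neurons, had 2.22, 1.97 and 0.558 CPM in SB animals, against 10.2, 10.4 and 12.4 CPM in WT animals. SB animal 3 was the lowest and no library overlapped (log2 -2.80, SE 0.57, adjusted p = 0.0270 by edgeR). Eno3, the muscle form, had 33.1, 26.2 and 31.3 CPM in SB animals, against 53.5, 51.9 and 51.7 CPM in WT animals, again without overlap (log2 -0.79, SE 0.16, adjusted p = 0.0260 by edgeR). Eno1, the widespread form, had 126, 153 and 209 CPM in SB animals, against 94.1, 95 and 97.0 CPM in WT animals. Every SB library of Eno1 was above every WT library, but its adjusted p was 0.0599 by edgeR (log2 0.77, SE 0.22).

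Pyruvate kinase closes glycolysis. Pklr (ENSMUSG00000041237, chr3:89136142-89146784, plus strand, GRCm38), the pyruvate kinase of red cells and liver, showed the largest change of the 34 genes. It had 24.9, 86.3 and 99.5 CPM in SB animals, against 5.72, 8.71 and 3.12 CPM in WT animals. SB animals 2 and 3 were the highest, SB animal 1 lay between them and the WT animals, and no library overlapped (log2 3.59, SE 0.66, adjusted p = 0.0206 by edgeR). The summed erythroid markers were 1733, 12279 and 4832 CPM in SB animals 1, 2 and 3, against 3675, 2585 and 1383 CPM in WT animals 1, 2 and 3. SB animal 1 was below WT animals 1 and 2 in this sum and above them in Pklr, but single markers differed from the sum. Of the 11 markers 4 were called higher and 7 were not called. Rhag, a membrane protein of red cells, was called (log2 3.31). It had 206, 530 and 501 CPM in SB animals, against 60.5, 45.5 and 18.8 CPM in WT animals. Epor, also called, had 62.3, 195 and 241 CPM in SB animals, against 40.1, 32.1 and 15.5 CPM in WT animals. In both, as in Pklr, SB animal 1 was the lowest SB animal and above every WT animal. The remaining markers were not compared with Pklr one by one. A part of erythroid cells in the Pklr difference was not tested. Of the mRNA words of Pklr, 21.8% are shared with Hcn3 on the other strand, which had 1.68 to 2.23 CPM in SB animals and 3.44 to 3.85 CPM in WT animals. Pkm, the form of most other tissues, had 507, 408 and 253 CPM in SB animals and 242, 240 and 235 CPM in WT animals and was not called (log2 0.70, SE 0.27, adjusted p = 0.132 by edgeR).

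The upstream Pklr promoter in RefSeq, from which the red cell form is known to start, is shown because Pklr changed the most. It lies at chr3:89135892-89136191 on the plus strand of GRCm38.p6. Capitals mark a word read by GATA factors (AGATAA, or TGATAA in the search, on both strands), which starts at -35, and a word read by Kruppel-like factors (CACCC, found here as GGGTG on the minus strand), which starts at -68.
Pklr: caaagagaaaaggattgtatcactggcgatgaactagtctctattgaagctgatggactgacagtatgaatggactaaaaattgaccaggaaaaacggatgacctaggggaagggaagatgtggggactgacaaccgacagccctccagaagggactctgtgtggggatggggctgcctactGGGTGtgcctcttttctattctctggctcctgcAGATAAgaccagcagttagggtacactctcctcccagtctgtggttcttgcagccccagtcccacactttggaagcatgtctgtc
The GATA word is in 9 of the 47 windows of the 34 genes and in 18.6% of all windows, and CACCC is in 31 of the 47 and in 57.5% of all windows. CACCC matches in the Slc16a3 window above were left in lower case. The counts do not separate the transcript forms of Pklr.

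Lactate dehydrogenase is a tetramer of Ldha and Ldhb subunits. Ldha, the form that favours lactate, rose, with 800, 426 and 717 CPM in SB animals, against 277, 274 and 261 CPM in WT animals. SB animal 2 was the lowest of the SB animals and still above every WT library (log2 1.26, SE 0.27, adjusted p = 0.0307 by edgeR). Ldhb, the form of heart and other aerobic tissues, had 28.2, 2.09 and 1.19 CPM in SB animals and 6.65, 4.68 and 7.49 CPM in WT animals. SB animal 1 was above the WT range and SB animals 2 and 3 below it, and the gene was not called (log2 0.74, SE 1.18, adjusted p = 0.691 by edgeR). Without SB animal 1 the log2 change of Ldhb was -1.94, with an adjusted p of 0.0339.

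**Figure D2:**
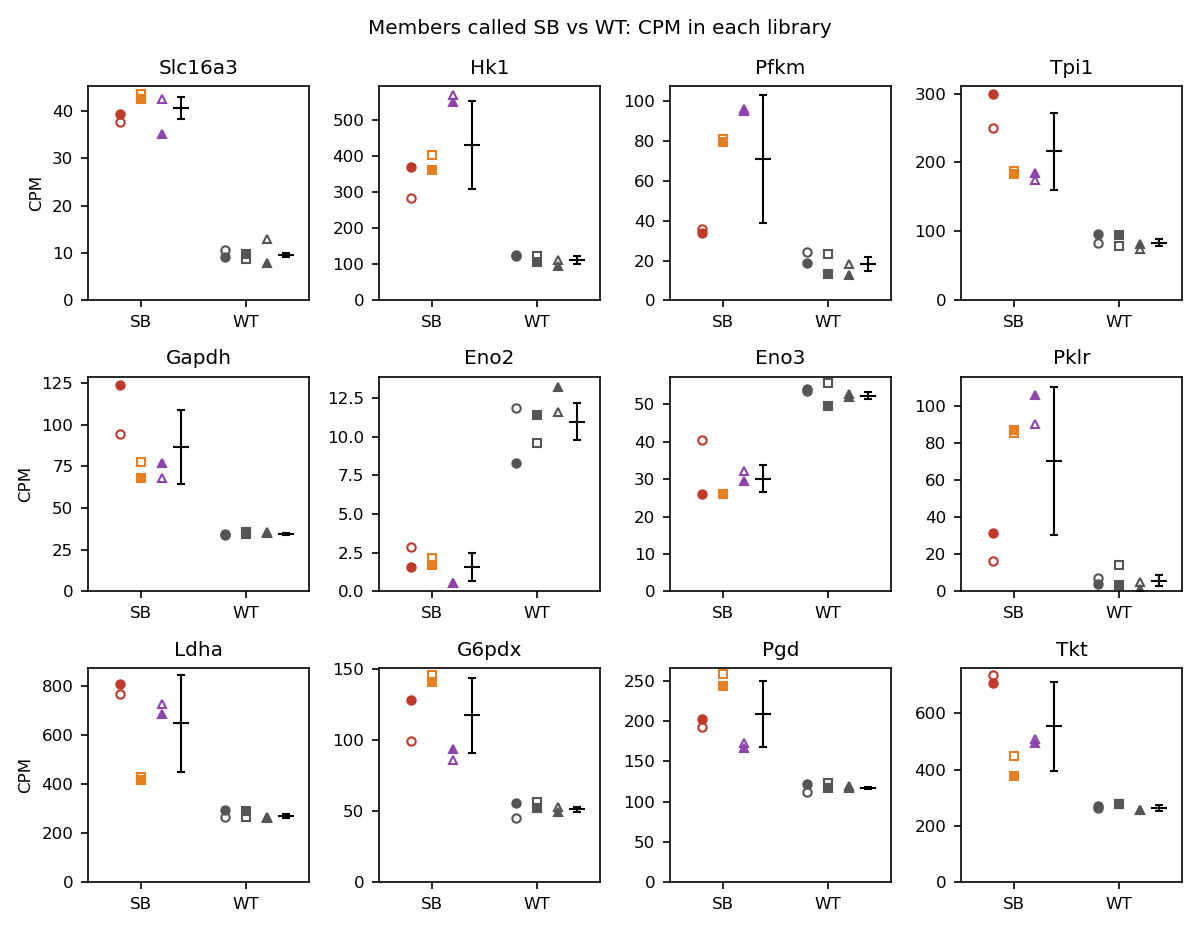
CPM of the 12 called genes in each library, SB left of WT, with filled symbols for piece 1 and open symbols for piece 2 of animals 1 (circles), 2 (squares) and 3 (triangles); the bar beside each group is the mean of its 3 animals with its SD. In every panel the 6 SB libraries lie wholly above or, for Eno2 and Eno3, wholly below the 6 WT libraries.

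In the oxidative arm of the pentose phosphate pathway, both dehydrogenases that make NADPH rose. G6pdx, the entry enzyme, had 117, 144 and 91.6 CPM in SB animals, against 49.7, 53.6 and 50.7 CPM in WT animals (log2 1.20, SE 0.20, adjusted p = 0.0153 by edgeR). Pgd, the later dehydrogenase, had 201, 253 and 172 CPM in SB animals, against 116, 119 and 117 CPM in WT animals (log2 0.84, SE 0.18, adjusted p = 0.0321 by edgeR). In both genes SB animal 2 was the highest and SB animal 3 the lowest of the SB animals, with no overlap with WT. Pgls, the lactonase between them, had 140, 96.7 and 125 CPM in SB animals and 161, 163 and 154 CPM in WT animals and was not called (log2 -0.40, SE 0.18, adjusted p = 0.170 by edgeR). Pgls overlaps Fam129c, which was called lower at log2 -3.90, over 776 bases of exon. Of the 50-base words of the Pgls mRNA 0% are shared with it, against 18.9% over all annotated transcripts of Pgls. A part of this overlap in the Pgls counts was not tested. G6pdx shares 10.5% of its mRNA words with the overlapping gene Ikbkg, which was not called (log2 0.01). G6pdx and Pgk1 lie on the X chromosome, and Xist, the RNA of the inactive X, was at 2271, 1002 and 1.67 CPM in SB animals and 1.49 to 2.44 CPM in WT animals. Xist was thus high in SB animals 1 and 2, whose titles begin with F. It was low in SB animal 3, whose title begins with M, and in all 3 WT animals. By this RNA, sex was not balanced between the groups, and the part of this imbalance in any difference, in these or other genes, was not tested.

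In the nonoxidative arm, Tkt, the transketolase that links pentoses back to glycolysis, rose, with 729, 421 and 508 CPM in SB animals, against 265, 275 and 253 CPM in WT animals. The groups did not overlap, and SB animal 1 was the highest (log2 1.06, SE 0.24, adjusted p = 0.0359 by edgeR). Taldo1, the transaldolase of the same arm, had 396, 432 and 181 CPM in SB animals and 328, 318 and 285 CPM in WT animals, with SB animal 3 below and the others above the WT range (adjusted p = 0.836 by edgeR). Rpia, the isomerase that makes ribose phosphate, had 136, 96.5 and 121 CPM in SB animals and 84.8, 94.3 and 81.5 CPM in WT animals (log2 0.44, SE 0.18, adjusted p = 0.138 by edgeR). Rpe, the epimerase, had 26.5, 41.8 and 41.4 CPM in SB animals and 30.6, 32.3 and 35.6 CPM in WT animals (adjusted p = 0.666 by edgeR). By role, 3 of the 7 pentose phosphate enzymes rose, 6 of the 23 glycolytic enzymes and regulators rose and 2 fell, and 1 of the 4 transporters rose, beside 7.99% higher and 9.1% lower over all genes. Differences between these roles were not tested.

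Per kilobase of all annotated exons, the more abundant isozyme at some steps was not the same in SB and WT spleens. Levels of isozymes were compared per kilobase of exon, and 13 log2 ratios of an isozyme or transporter over its partner were taken per animal. Exon length here takes in every annotated exon of a gene, so for some genes it exceeds the length of the mRNA. Which isozyme leads depends on that length, while the difference between groups in a ratio does not. In 6 of the 13 the 3 SB and 3 WT animals did not overlap. Each of these had an exact 2-sided permutation p of 0.1, the smallest that 3 animals against 3 can give, and 0.217 after adjustment over the 13 ratios, so none passed the threshold. The other 7 overlapped. Ratios of other gene pairs were not counted for comparison, and some ratios share a gene, as Eno2 over Eno1 and Eno3 over Eno1 do.

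Per kilobase of all annotated exons, the order of the enolases was not the same in the groups. Eno1 made up 54.5%, 64.8% and 68.3% of the enolase level per kilobase in SB animals 1, 2 and 3, against 34.7%, 35.5% and 35.8% in WT animals. Eno3 made up 44.4%, 34.2% and 31.5% in SB animals, against 61.0%, 60.1% and 59.0% in WT animals. Eno1 was thus the leading enolase in all 3 SB animals, and Eno3 in all 3 WT animals, on the scale of counts per kilobase. The lead of Eno3 in WT animals rests on exon lengths of 5379 bases for Eno1 and 1739 for Eno3. Their mRNAs hold 2884 and 1777 words of 50 bases. In CPM, without division by length, Eno1 was above Eno3 in every WT animal too. The log2 ratio of Eno3 over Eno1 was -0.78 ± 0.43 in SB animals and 0.76 ± 0.05 in WT animals (SD, n = 3 each), and that of Eno2 over Eno1 was -6.68 ± 1.45 in SB animals and -2.93 ± 0.13 in WT animals. Since 49.5% of the mRNA words of Eno1 recur in other genes, its level may be undercounted, which touches the order of the levels and not the difference between groups.

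Pklr took a larger share of pyruvate kinase in each SB animal than in any WT animal. Its log2 ratio to Pkm was -3.72, -1.61 and -0.72 in SB animals, against -4.77, -4.16 and -5.60 in WT animals. Pklr was therefore 7.07%, 24.6% and 37.8% of the 2 kinases per kilobase in SB animals and 3.53%, 5.31% and 2.02% in WT animals; Pkm led in every animal. The ratio of the glucose transporters differed as well: Slc2a3 over Slc2a1 was 1.14, 0.72 and 1.62 in SB animals, against -0.58, -0.70 and -0.998 in WT animals on the log2 scale. Per kilobase of all annotated exons, Slc2a3 was thus the more abundant in each SB animal and Slc2a1 in each WT animal. The order in WT animals rests on exon lengths of 7245 bases for Slc2a3 and 3506 for Slc2a1. Their mRNAs hold 4319 and 3596 words of 50 bases. In CPM, without division by length, Slc2a3 was the higher in every WT animal too.

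Bpgm, the mutase that makes the bisphosphoglycerate by which red cells tune oxygen release, had 67.6, 723 and 70.3 CPM in SB animals and 1091, 850 and 506 CPM in WT animals. SB animal 2 lay within the WT range, while SB animals 1 and 3 were far below it (log2 -1.51, SE 1.01, adjusted p = 0.338 by edgeR). The erythroid sum was 1733, 12279 and 4832 CPM in SB animals, against 3675, 2585 and 1383 CPM in WT animals. A part of erythroid cells in the Bpgm difference was not tested. Pgam1, the glycolytic counterpart of Bpgm, had 7.93, 7.54 and 5.31 CPM in SB animals and 4.001, 4.39 and 4.07 CPM in WT animals (adjusted p = 0.145 by edgeR). The log2 ratio of Bpgm over Pgam1 was 2.23, 5.72 and 2.87 in SB animals, against 7.23, 6.74 and 6.09 in WT animals, without overlap. Aldoc over Aldoa was -7.63, -7.11 and -5.80 in SB animals, against -5.67, -5.33 and -5.38 in WT animals, also without overlap, and Aldoa was by far the more abundant in both groups.

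**Figure D3:**
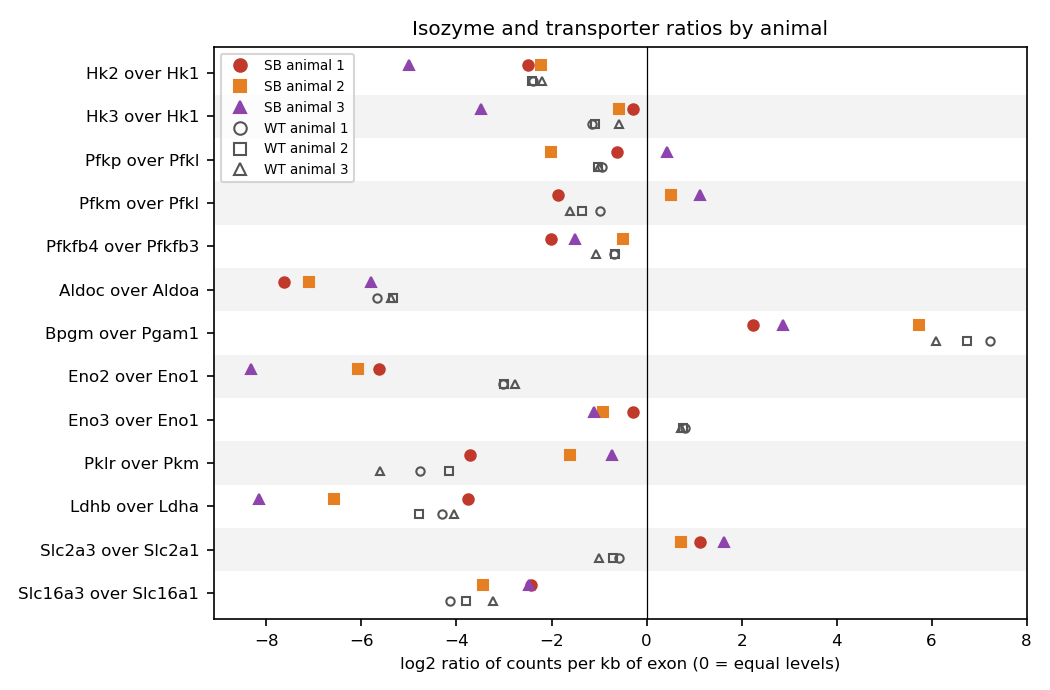
The 13 log2 ratios of isozymes or transporters, from counts per kilobase of exon, with the 3 SB animals (filled) above the 3 WT animals (open) in each row and 0 marking equal levels. The enolase, Pklr over Pkm, Slc2a3 over Slc2a1, Bpgm over Pgam1 and Aldoc over Aldoa rows have no overlap between groups. In Eno3 over Eno1 and Slc2a3 over Slc2a1 the groups lie on opposite sides of 0, a position that depends on the exon lengths used.

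The hexokinase and phosphofructokinase families differed among SB animals. Hk1 was 89.3% of the hexokinase level per kilobase in SB animal 3 and at most 53.0% in SB animals 1 and 2, against 53.1% to 61.0% in WT animals. Pfkm was 14.3%, 53.5% and 48.1% of the phosphofructokinase level in SB animals and 17.9% to 24.9% in WT animals. On this scale Pfkl led in SB animal 1 and in all WT animals, and Pfkm in SB animals 2 and 3. The exon lengths used were 13401 bases for Pfkp, 6675 for Pfkl and 3340 for Pfkm. Their mRNAs hold 4536, 3759 and 3308 words of 50 bases. In CPM, without division by length, Pfkp led in SB animals 1 and 3 and Pfkl in SB animal 2. The leading form thus depends on the length used. Per kilobase over the whole pathway, Ldha (196), Aldoa (160) and Taldo1 (155) had the highest mean CPM in SB spleens, and Bpgm (227), Taldo1 (143) and Aldoa (122) in WT spleens.

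The SB spleens differed from each other in nearly the whole pathway. In a model with 1 term per animal, in which the 2 pieces serve as replicates, 31 of the 34 genes (91.2%) were called among SB animals, against 70.1% of all 17758 genes tested; the exceptions were Slc16a3, Pgam1 and Eno3. Among WT animals 0 of the 34 genes were called by edgeR, against 0.417% of all genes, with 2 at an unadjusted p under 0.05, against 6.37% of all genes, and no other tool was run on this contrast. This model has no term for the piece, so differences between WT pieces add to the WT spread. With a piece term for each genotype, a fit chosen after seeing the data, 32 of the 34 genes were called among SB animals (77.5% of all genes) and 1, Slc16a1, among WT animals (3.09% of all genes). Pieces of 1 spleen are not separate animals, so these calls say that spleens differ by more than their own pieces do. The range among SB animals was wider than among WT animals for all 34 genes. The range among SB animals exceeded 2 log2 units, a 4-fold span, for Slc2a3, Hk2, Hk3, Pfkp, Pfkfb4, Bpgm and Ldhb, whose values are given above. SB animal 1 was the highest SB animal for 19 genes and SB animal 3 the lowest for 18. These counts were not made over all genes, of which 70.1% were called among SB animals and 0.417% among WT animals. They are thus not read as particular to the pathway. The median of the 34 log2 levels over the WT mean was 0.94 in SB animal 1, 0.58 in SB animal 2 and 0.27 in SB animal 3.

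Pieces of the same spleen were close for most of the 34 genes. Pieces 1 and 2 are titled sections 1 and 2 in SB spleens and sections A and B in WT spleens. The labels do not say where in the spleen they were cut, so piece 2 of an SB spleen need not match piece 2 of a WT spleen. Over all 6 spleens, with the animal as a block, 0 of the 34 genes were called between piece 2 and piece 1 by edgeR, against 2.28% of all genes, with 5 at an unadjusted p under 0.05, against 21.9% of all genes, and DESeq2 called 3. In SB spleens 0 were called by edgeR, against 0% of all genes, again with 5 at an unadjusted p under 0.05, against 19.2% of all genes, and no other tool was run there. In WT spleens 5 of the 34 genes (14.7%) were higher in piece 2, against 7.68% of all genes called in either direction. They were Pklr (log2 1.53), Bpgm (0.87), Hk3 (0.67), Pfkm (0.57) and Slc16a1 (0.52). Each was higher in piece 2 of all 3 WT animals, with Pklr at 0.85, 1.98 and 1.80 in WT animals 1, 2 and 3 on the log2 scale of piece 2 over piece 1. In the same WT pieces 8 of 11 erythroid markers and 9 of 10 red pulp macrophage markers were called higher in piece 2. The erythroid sum was 4062, 3915 and 2134 CPM in piece 2 of WT animals 1, 2 and 3, against 3258, 1318 and 819 CPM in piece 1, and its part in the piece differences was not tested. No gene of the 34 was called in WT spleens without WT animal 2 or without WT animal 3, and 8 were called without SB animal 1, which enters through the shared estimate of spread.

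The piece difference itself differed between genotypes for 2 of the 34 genes, against 1.33% of all genes. Since the labels do not say where the pieces were cut, this comparison cannot tell genotype apart from the place of the cut. Pklr in piece 2 over piece 1 was -0.92, -0.03 and -0.23 in SB animals and 0.85, 1.98 and 1.80 in WT animals, a difference of -1.87 (adjusted p = 0.0386 by edgeR). Slc16a1 was -0.20, -0.10 and -0.22 in SB animals and 0.30, 0.74 and 0.53 in WT animals, a difference of -0.70 (adjusted p = 0.0370 by edgeR). All 3 SB animals were below and all 3 WT animals above 0 for both genes. The count was 0 without SB animal 3, WT animal 2 or WT animal 3, and 5 without WT animal 1.

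**Figure D4:**
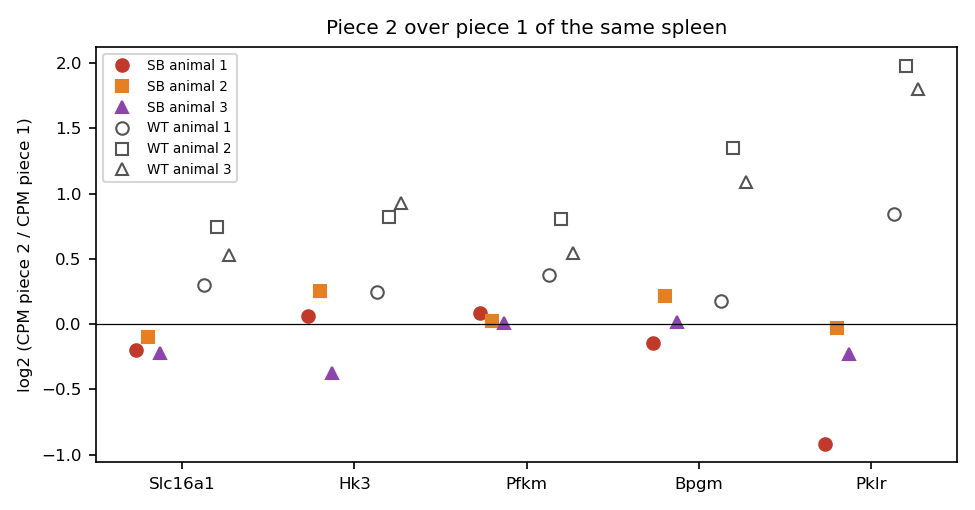
Log2 of CPM in piece 2 over piece 1 of the same spleen for the 5 genes called between the pieces of WT spleens, with SB animals (filled) left of WT animals (open). All WT symbols lie above 0; for Pklr and Slc16a1 all SB symbols lie below it.

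Genes around the pathway were called at about the rate of all genes: 20 of the 102 tested in 7 lists were called (19.6%), against 17.1% of all genes, and nothing is read from the counts of single lists. Of 14 genes of pyruvate fate, 4 rose and the rest were not called, with Pdk3, a kinase that holds back pyruvate dehydrogenase, at 135, 57.8 and 90.4 CPM in SB animals and 30.6 to 31.0 CPM in WT animals, and Dld, a subunit of that complex, at 118 to 125 CPM in SB animals and 79.6 to 83.0 CPM in WT animals. Of 10 genes that use ribose phosphate or NADPH, 3 rose and the rest were not called, including Rrm1, the large subunit of ribonucleotide reductase, at 335, 463 and 340 CPM in SB animals and 91.0 to 131 CPM in WT animals. Prps1, which activates ribose phosphate for nucleotide synthesis, rose by a log2 change of 1.25. Beside these stood the proliferation markers, of which 8 of 10 rose and whose sum was 2277, 4653 and 3042 CPM in SB animals and 518 to 1075 CPM in WT animals; their part was not tested.

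In gluconeogenesis and glycogen metabolism 2 of 13 rose and the rest were not called: Pygl, the glycogen phosphorylase of liver and blood cells (log2 2.33, SE 0.40), and the scarce Fbp1, a gluconeogenic phosphatase at 0.315 to 1.70 CPM in SB animals and 0.0297 to 0.130 CPM in WT animals. Of 16 genes of side branches 3 rose and 1 fell. Sord and Khk, which handle sorbitol and fructose, changed by log2 1.68 and 2.29, and Gpd1l, related to glycerol phosphate dehydrogenase, by -1.19. Of 15 tested further isozymes and transporters 1 fell and the rest were not called, the scarce transketolase-like Tktl1, at 0.0284, 0.0303 and 0 CPM in SB animals and 0.297 to 0.747 CPM in WT animals. Among 19 regulators 2 rose and 2 fell. Mlxipl, the carbohydrate response factor known to act on Pklr in liver, had 1.08, 2.06 and 2.31 CPM in SB animals, against 0.0975 to 0.120 CPM in WT animals, and Nfe2l2, a regulator of NADPH-making enzymes, changed by log2 0.79. Epas1, a hypoxia-inducible factor, and Hif1an, which restrains such factors, changed by -1.02 and -0.62. Of 15 other hypoxia targets 2 rose and the rest were not called, Mxi1 (log2 1.44) and Ero1l (log2 0.89). The medians of these 7 lists lay between 0.16 and 0.78 on the log2 scale, against 0.11 for all genes tested.

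The remaining marker lists were read for cells that bring their own glycolytic isozymes. Of the B cell markers 10 of 10 fell, and of the T cell markers 8 of 10. Promyelocyte markers rose in 5 of 6, neutrophil markers in 1 of 10, monocyte markers in 1 of 6 and megakaryocyte markers in 2 of 8, while 0 of 10 red pulp macrophage markers were called by edgeR between SB and WT spleens, with 2 at an unadjusted p under 0.05 and 2 called by DESeq2. Skeletal muscle markers, of the tissue for which Eno3 and Pfkm are named, were called in 0 of 4 tested by edgeR, with 2 at an unadjusted p under 0.05 and 2 called by DESeq2, and summed to 19.9 to 26.3 CPM in SB animals and 29.5 to 34.9 CPM in WT animals. Pancreas markers were called in 0 of 1 tested by edgeR, DESeq2 and the unadjusted p alike, and summed to 7.47 to 64.5 CPM in SB animals and 13.3 to 20.95 CPM in WT animals. No liver marker reached the test, and the liver sum was 3.01 CPM or less in every animal. Among adipose markers the 1 tested, Fabp4, rose.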

How the data were processed

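The authors deposited whole-number read counts per gene for the 12 libraries, made from poly-A selected RNA with an unstranded kit, per the labels' protocols. STAR 2.5.3a, limma and the builds mm10 and GRCm38 are named in the submitters' processing notes; the counting program is not given in the sources used here. The 34 genes, the 7 pathway lists and the 13 marker lists were chosen with earlier results of these data known.

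Counts of both pieces were summed per animal and tested with edgeR 4.0.16 (TMM, filterByExpr, robust quasi-likelihood) in R 4.3.3 over 17328 genes; CPM are counts scaled to the TMM-corrected library size. Pieces were compared over 12 libraries and 17758 genes with the animal as a block. Pairing comes from the labels: deviations of the 2 pieces of an animal from their group correlated at 0.16 to 0.96. The 2 pieces of an animal differed by more than sampling noise, their chi-square divided by its degrees of freedom running from 6.09 to 41.6. The labels say that the animals are separate, with 3 in each group. The common biological coefficient of variation was 49.7% between animals and 12.0% between pieces. On simulated SB and WT counts, 33% of genes changed 4-fold and 87% of genes changed 16-fold were recovered; between pieces, 99% of genes changed 2-fold were.

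Exon lengths, overlaps and shared 50-base words came from GENCODE release M21 (GRCm38), in which 32026 of 32121 genes matched. Promoters (250 bases before and 50 after a start) are RefSeq, GRCm38.p6. Isozyme ratios used 0.5 added to each count. Values and statistics are given for called genes, for ratios without overlap, for genes spread over more than 2 log2 units among SB animals and for the main gene of each step; from each pathway list, up to 2 called genes per direction with the smallest adjusted p are named. Alternatives were RLE scaling, TMM without globin and immunoglobulin genes, DESeq2 1.42.0, limma-voom 3.58.1 with and without a correlation within animals, no filter on low counts, 1 piece at a time and each animal left out.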

Additional observations from a re-analysis of the deposited data

Results flagged for a closer look

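For Pgam1 in WT spleens, piece 2 of WT animal 2 stood apart at 5.12 CPM, against 4.20 CPM in the nearest of the other 5 WT libraries. It was the 1 such case in 68 groups of 6 libraries, where chance alone marks about 1 in 20 groups. For Pklr and for Slc16a1 the difference between pieces was not the same in SB and WT spleens. The SB minus WT difference in the log2 change of piece 2 over piece 1 was -1.87 for Pklr and -0.70 for Slc16a1. Each was past the threshold in edgeR's interaction test. Where the pieces of either group were cut is not labelled.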

How the results depend on the processing

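Between SB and WT spleens, 12 of the 34 genes and 2961 of all genes were called. DESeq2 gave a p-value for 33 of the 34 genes and called 17, 14 higher and 3 lower, beside 5631 of all genes. By edgeR, Tkt lost its call with piece 1 alone (adjusted p = 0.0549) and Pgd with no filter on low counts (adjusted p = 0.0520). With 1 animal left out the counts ran between 1 and 17 of the 34 genes and between 253 and 6174 of all genes, the lowest whenever a WT animal was missing. Leaving out an animal moved the 5 genes called between WT pieces to between 0 and 8, the 2 called for the piece difference to between 0 and 5, and the 0 called among WT animals to between 0 and 1. With no filter on low counts, 5 genes were called between pieces, 3 between SB pieces, 5 for the piece difference and 3 among WT animals. With a piece term for each genotype, 1 gene was called among WT animals. In the paired comparison of pieces, DESeq2 with the animal as a replicate block called 3 genes, and edgeR with no replicate block called 0, as with it. Leaving out 1 animal, Ldhb ran between -1.94 and 1.27, turning without SB animal 1, and Hk3 over Hk1 ran between -1.09 and 0.51 and Pfkp over Pfkl between -0.33 and 0.89, both turning without SB animal 3. The causes were not tested. Of 646 single-gene values recomputed, 556 stayed on the same side of the threshold, 60 fell short of it, 29 passed it and 1 reversed past it. Per kilobase of unshared sequence, an alternative chosen after seeing the data, 5 of 26 isozyme level ratios moved by more than 1 SD and 1 changed sign, Pfkm over Pfkl in SB spleens (0.06). With 3 animals a group, a 4-fold change is often missed.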

Other observations

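Some regulators and targets outside the naming rule, chosen after their values were seen, are given here; none was called between SB and WT spleens. Myc, a transcription factor that acts on many glycolytic genes, had 475, 95 and 397 CPM in SB animals 1, 2 and 3 and 93.7 to 97.6 CPM in WT animals (adjusted p = 0.0879 by edgeR). SB animal 2 was thus at the WT level and the others far above. Klf1, the Kruppel-like factor of red cell precursors, had 56.0, 302 and 257 CPM in SB animals and 53.1, 36.7 and 16.4 CPM in WT animals (adjusted p = 0.0659 by edgeR). Egln3, an oxygen sensor induced by hypoxia, had 141, 6.30 and 4.78 CPM in SB animals and 2.94 to 4.32 CPM in WT animals, so that SB animal 1 stood alone, as it did for Ldhb (adjusted p = 0.122 by edgeR). Hif1a, the hypoxia-inducible factor, had 76.4, 89.6 and 53.3 CPM in SB animals and 104 to 113 CPM in WT animals, with every SB animal below every WT animal (log2 -0.56, adjusted p = 0.131 by edgeR). Txnip, which holds back glucose uptake, had 602, 1030 and 775 CPM in SB animals and 636 to 792 CPM in WT animals (adjusted p = 0.586 by edgeR).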
